A study of Mus musculus with 16 samples.

Results

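The genes described here are the replication-dependent histone genes of the mouse, and the data are regions of accessible chromatin found by ATAC-seq, in which the Tn5 transposase cuts and tags open DNA. The genes were taken by name as all protein-coding genes of GENCODE M21 (mm10) whose names start with Hist1h, Hist2h, Hist3h or Hist4h. The rule found 67 of 21938 protein-coding genes, with 6 genes for H1, 18 for H2A, 18 for H2B, 12 for H3 and 13 for H4. Of these, 54 lay in the Hist1 cluster on chromosome 13, 10 in Hist2 on chromosome 3, 2 in Hist3 on chromosome 11 and 1, Hist4h4, on chromosome 6. A gene was counted as having a region when the centre of at least 1 region lay within 1 kb of any of its annotated transcription start sites (TSSs).

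The study asked how the levels of the pluripotency factors SOX2 and OCT4 in mouse embryonic stem (ES) cells relate to chromatin accessibility and fate. All 12 ATAC-seq libraries came from SBROS, a single knock-in line in the CGR8 background with SNAP tags on both Sox2 alleles, a HALO tag on 1 Oct4 allele and reporters for Sox1 and Brachyury. Cells in G1 were sorted into SHOH (SOX2 high, OCT4 high), SHOL (SOX2 high, OCT4 low), SLOH (SOX2 low, OCT4 high) and SLOL (SOX2 low, OCT4 low), with 3 replicates each. All 4 populations had been grown with serum, LIF, 3 µM CHIR99021 and 0.8 µM PD184352, and labelled for 1 h with 100 nM HaloTag TMR ligand and 12 nM SNAP-SiR647 and for 15 min with 1.62 µM Hoechst. The 81132 regions are a merged list over all 12 libraries. The list holds no level, score or library, so the populations could not be compared and a region means only that a peak was called in at least 1 library.

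Histone proteins package DNA into nucleosomes, in which DNA wraps around a core of H2A, H2B, H3 and H4, while H1 binds the linker DNA between them. The replication-dependent genes supply these proteins in bulk when DNA is copied in S phase. They lie in clusters at which the histone locus body forms around NPAT, and their messenger RNAs mostly lack introns and end in a conserved stem-loop bound by SLBP in place of a poly(A) tail. Their coding sequences are closely alike between copies, which matters for any assay that keeps only reads with a single place in the genome.

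The stem-loop was used to check the name of the group. Within 150 bp after the stop codon, 63 of the 67 genes (94.0%) carried a 6-base stem opening with GG around a 4-base loop, against 0.326% of 21752 protein-coding genes with an annotated stop codon. It began between 22 and 59 bp after the stop codon, with a median of 31 bp. The 6 forms found are shown because the stems of the H4 genes differed from the stem common to the other types, with the loop in capitals and the sequence on the strand of the gene.
stem-loop form 1: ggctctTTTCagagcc
stem-loop form 2: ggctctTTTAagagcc
stem-loop form 3: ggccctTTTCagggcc
stem-loop form 4: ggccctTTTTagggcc
stem-loop form 5: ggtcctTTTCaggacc
stem-loop form 6: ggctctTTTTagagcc
Form 1 was found in 41 genes, of which 15 encode H2A, 13 H2B, 8 H3 and 5 H1. Form 2 followed in 9 genes and form 6 in 1, again without an H4 gene. Forms 3, 4 and 5, in 8, 2 and 2 genes, were found in H4 genes alone among the members. No match was found within this window for Hist2h2be, Hist1h2an, Hist1h3g and Hist1h4a, which says only that these letters were not there. Among all other protein-coding genes 8 carried a match, including the variant histone gene H2afx and the X-linked H2bfm, which were picked out after their values were seen.

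A region was found at 59 of the 67 histone genes (88.1%, 95% Wilson interval 78.2 to 93.8%, which covers counting error only). The same rule gave 68.1% of all protein-coding genes. With only the 5′ end of each gene, which removes the advantage of genes with many TSSs, the shares were 88.1% and 62.7%. Of the histone genes 63 had a single annotated TSS, while protein-coding genes had a median of 3. A region covered a TSS itself at 53 histone genes (79.1%), against 61.4% of protein-coding genes. There were 2 or more regions at 27 histone genes (40.3%), against 21.1% of protein-coding genes. In all, 32 histone genes had 1 region, 20 had 2 and 7 had 3.

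By type, regions were found at 4 of 6 H1 genes, 15 of 18 H2A genes, 16 of 18 H2B genes, all 12 H3 genes and 12 of 13 H4 genes. By cluster, they were found at 46 of 54 genes in Hist1 (85.2%), all 10 in Hist2, both genes of Hist3 and Hist4h4. The 8 genes without a region were therefore all in Hist1, the largest cluster. They were the H1 genes Hist1h1d and Hist1h1t, the H2A genes Hist1h2af, Hist1h2ao and Hist1h2ap, the H2B genes Hist1h2bq and Hist1h2br, and the H4 gene Hist1h4m.

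**Figure D1:**
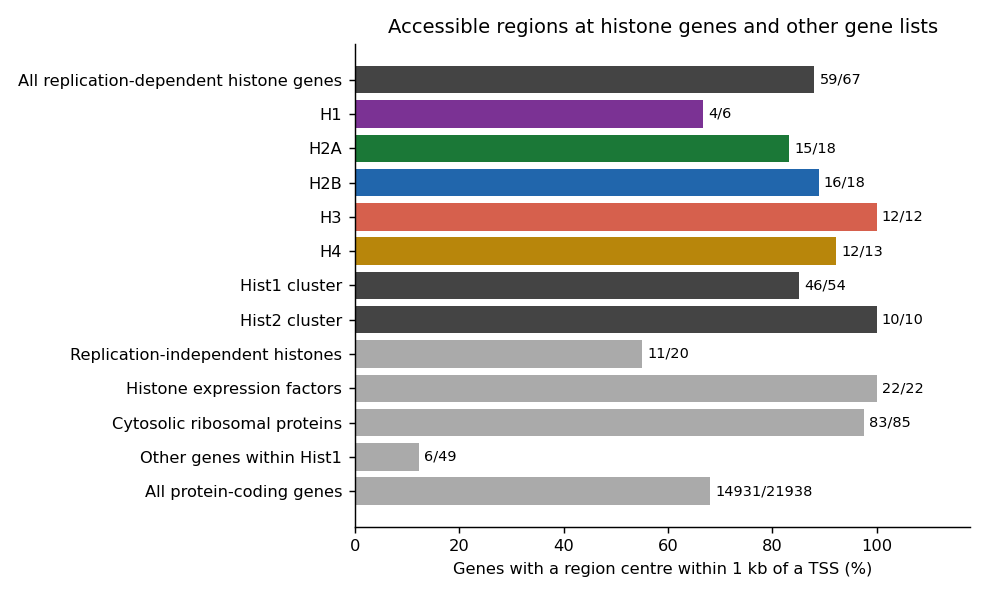
Bars give the percentage of genes with a region centre within 1 kb of a TSS, with counts beside them, for the histone genes by type and for the Hist1 and Hist2 clusters, 4 other gene lists and all protein-coding genes. The histone genes stood at 88.1% and all protein-coding genes at 68.1%, with H1 lowest among the types at 66.7%.

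The 59 genes had 67 distinct regions. Their widths ran from 127 to 1706 bp with a median of 539 bp, against a median of 609 bp over 19620 regions at any protein-coding gene and 355 bp over the whole list. Regions under 200 bp made up 14.9% of those at histone genes and 9.42% of those at protein-coding genes. Regions over 1000 bp made up 13.4% and 14.7%. The 95% interval of the histone median, 369 to 638 bp, included the median of 609 bp at protein-coding genes. It takes the regions as independent, although several can lie at the same gene, and no test was made. Outside this interval lay the histone median of 707 bp for regions that cover a TSS. With regions at most 500 bp apart joined it was 991 bp, and both lack a protein-coding counterpart here. Summed per gene with a region, the median width was 920 bp at histone genes and 868 bp at protein-coding genes.

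**Figure D2:**
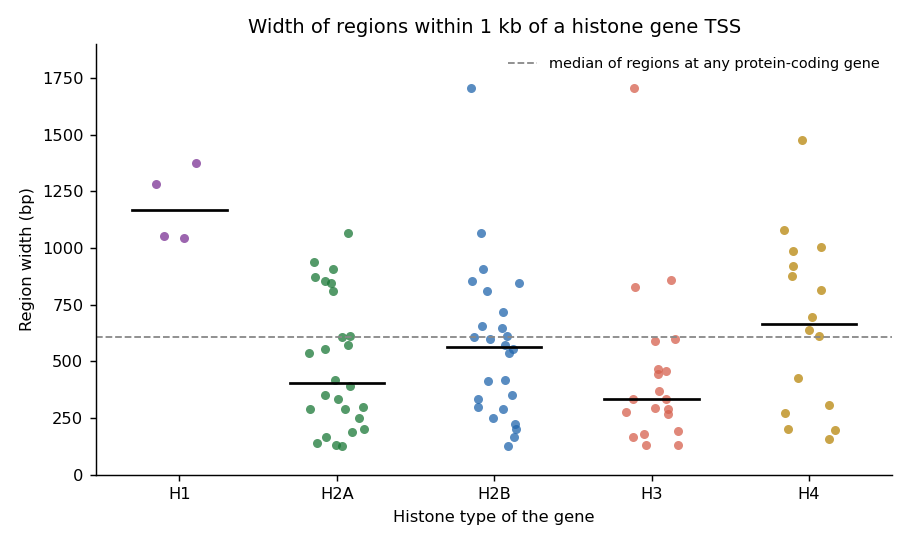
Each point is the width in bp of 1 region within 1 kb of a TSS, by the histone type of the gene, with a region shared by several types drawn under each. Black lines mark medians, which ran from 336 bp for H3 to 1168 bp for H1, and the dashed line marks the median of 609 bp at any protein-coding gene.

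H1 is the linker histone and its genes have the longest coding sequences of the group. The 4 H1 genes with a region had 1 each, all over 1000 bp wide. Hist1h1c had the widest at 1373 bp, followed by Hist1h1b at 1282 bp, Hist1h1e at 1054 bp and Hist1h1a at 1043 bp. Their centres lay between 416 and 594 bp downstream of the TSS, and each region covered the whole coding sequence. The promoters of 3 H1 genes are shown from 170 bp before to 30 bp after the TSS, because 2 of them had a wide region and the other had none. Capitals mark the AC box AAACACA known from H1 promoters, CCAAT and TATAAA, on either strand. Build mm10, Hist1h1e chr13:23622529-23622728 (minus strand), Hist1h1b chr13:21780596-21780795 (minus strand) and Hist1h1t chr13:23695644-23695843 (plus strand).
Hist1h1e: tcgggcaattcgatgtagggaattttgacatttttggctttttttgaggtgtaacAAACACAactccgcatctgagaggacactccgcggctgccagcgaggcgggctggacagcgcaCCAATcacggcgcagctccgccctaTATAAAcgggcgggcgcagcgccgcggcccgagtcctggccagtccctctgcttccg
Hist1h1b: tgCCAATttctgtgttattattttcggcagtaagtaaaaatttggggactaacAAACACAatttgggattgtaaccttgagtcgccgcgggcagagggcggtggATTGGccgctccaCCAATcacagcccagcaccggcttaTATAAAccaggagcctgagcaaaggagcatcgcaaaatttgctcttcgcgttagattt
Hist1h1t: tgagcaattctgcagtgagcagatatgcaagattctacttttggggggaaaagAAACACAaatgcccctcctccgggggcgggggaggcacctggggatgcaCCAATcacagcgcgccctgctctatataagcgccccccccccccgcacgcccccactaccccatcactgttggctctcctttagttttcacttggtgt
Within 250 bp before to 50 bp after the TSS, 4 of 6 H1 genes carried the AC box, against 19.1% of protein-coding genes over all their TSSs and 6.4% at the 5′ end of the gene. Its first base lay between -117 and -113 bp in all 4. It was also found at 1 H2A, 3 H2B and 1 H3 gene and at no H4 gene, which made 9 of 67 genes (13.4%) over the group. Hist1h1t, which encodes the linker histone of spermatocytes, carried the AC box and a CCAAT box but had no region, and the nearest centre was 2306 bp downstream. Of its 75-base windows within 500 bp of the TSS 99.9% occur only once in the genome.

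Hist1h1d, which encodes a somatic H1, differed from Hist1h1t in where its annotated start lies. Its single annotated TSS is 1828 bp upstream of its start codon, and the nearest region centre was at -1748 bp from that TSS. A region of 1283 bp at chr13:23554944-23556226 covered 100% of its coding sequence, with its centre 495 bp downstream of the start codon. The H2B gene Hist1h2be was a similar case, since its TSSs lie 35138 bp from the start codon in the representative transcript. The region counted for it, 412 bp wide, is at the distant TSS next to Hist1h1e, while a further region of 561 bp at chr13:23585586-23586146 covered 98.1% of its coding sequence. These were the 2 genes with over 1 kb between TSS and start codon, and the median over the group was 32 bp.

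H2A and H2B form the dimers of the nucleosome core, and most of their genes stand head to head. Among the histone genes 13 divergent pairs had TSSs at most 1 kb apart, of which 12 joined an H2A and an H2B gene and 1, Hist1h2bh/Hist1h3f, an H2B and an H3 gene. The distance between the TSSs ran from 176 to 660 bp with a median of 279 bp. In 11 pairs both genes lay within 1 kb of the same region, and in 10 a single region spanned both TSSs and covered all the sequence between them. These were 84.6% and 76.9% of the pairs, against 97.5% and 83.2% of 721 divergent pairs among all protein-coding genes. The 10 pairs were Hist2h2ac/Hist2h2be, Hist1h2bl/Hist1h2ai, Hist1h2ak/Hist1h2bn, Hist1h2an/Hist1h2bp, Hist1h2ah/Hist1h2bk, Hist1h2ag/Hist1h2bj, Hist1h2ae/Hist1h2bg, Hist1h2bf/Hist1h2ad, Hist1h2ac/Hist1h2bc and Hist1h2ba/Hist1h2aa. The 2 pairs without a region were Hist1h2bq/Hist1h2ao and Hist1h2ap/Hist1h2br.

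The sequence between the TSSs of 3 pairs is shown on the plus strand of mm10, for a pair of Hist1 with a region, a pair of Hist2 with a region and a pair without any. It lies upstream of the TSS of the representative transcript of both genes. In the third pair its last bases lie within Hist1h2br, whose annotation starts at chr13:21833743. Capitals mark the octamer ATGCAAAT, which is bound by POU factors such as POU2F1, and the CCAAT, TATA and AC boxes spelled out above, each in either orientation. The coordinates are chr13:23683949-23684198, chr3:96220881-96221118 and chr13:21833508-21833770.
Hist1h2ac/Hist1h2bc: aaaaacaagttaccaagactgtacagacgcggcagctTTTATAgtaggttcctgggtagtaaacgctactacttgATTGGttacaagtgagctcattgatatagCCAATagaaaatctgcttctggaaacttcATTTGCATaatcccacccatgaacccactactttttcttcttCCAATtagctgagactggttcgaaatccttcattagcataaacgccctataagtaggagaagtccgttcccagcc
Hist2h2ac/Hist2h2be: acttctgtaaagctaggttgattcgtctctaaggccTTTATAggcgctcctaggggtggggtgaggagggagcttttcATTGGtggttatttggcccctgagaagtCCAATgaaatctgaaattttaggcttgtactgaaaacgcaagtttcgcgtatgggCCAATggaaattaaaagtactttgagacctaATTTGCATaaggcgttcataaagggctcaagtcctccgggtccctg
Hist1h2ap/Hist1h2br: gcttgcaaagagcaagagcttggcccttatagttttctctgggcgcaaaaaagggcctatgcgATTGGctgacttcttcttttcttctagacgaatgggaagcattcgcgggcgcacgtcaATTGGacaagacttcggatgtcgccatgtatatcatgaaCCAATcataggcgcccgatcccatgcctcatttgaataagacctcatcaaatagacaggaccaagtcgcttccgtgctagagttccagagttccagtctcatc
The first 2 sequences hold a single octamer each and the third holds none. All 3 hold CCAAT boxes. Between the TSSs of the 12 H2A and H2B pairs the octamer was present in 5, and CCAAT was present in all 13 pairs. Pairs without the octamer also had a region over both TSSs. These were Hist1h2bl/Hist1h2ai, Hist1h2ak/Hist1h2bn, Hist1h2an/Hist1h2bp, Hist1h2ag/Hist1h2bj and Hist1h2bf/Hist1h2ad. At both genes of the third printed pair 0% of the 75-base windows within 500 bp of the TSS occur only once in the genome.

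In the promoter windows the octamer was found at 7 of 18 H2A genes and 8 of 18 H2B genes and at no H1, H3 or H4 gene. Combined, these were 41.7% of H2A and H2B genes, against 4.13% of protein-coding genes over all TSSs and 1.57% at the 5′ end of the gene. The windows of a divergent pair overlap, so both genes of a pair often counted the same site. CCAAT was found at all H2A and H2B genes, 11 of 12 H3 genes, 5 of 6 H1 genes and 4 of 13 H4 genes, and over the group at 83.6% against 61.8% of protein-coding genes (39.0% at the 5′ end). TATAAA was found at 55.2% of histone genes, against 30.4% (12.6% at the 5′ end).

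Since the study concerns SOX2, the letters CCATTGT and CCTTTGT of the SOX motif were counted as well. They were present at 5 histone genes (7.46%), 1 of each type, against 21.6% of protein-coding genes over all TSSs and 8.15% at the 5′ end of the gene. In the regions themselves, whose widths differ, the SOX motif was found in 18 of 67 (26.9%), against 13.3% of regions at protein-coding genes. The octamer was found in 11 regions (16.4%), against 1.93%. TATAAA was found in 46.3% of the regions against 9.13%, CCAAT in 64.2% against 46.3% and AAACACA in 7.46% against 7.69%. The CpG observed over expected ratio of the promoter windows had a median of 0.75, against 0.524 for protein-coding genes, while the median GC content was 45.7% against 55.3%. By type the median ratio was lowest for H4, at 0.649, and highest for H2A, at 0.805.

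Sharing was not restricted to divergent pairs. Of the 67 regions 24 lay within 1 kb of the TSSs of 2 or more histone genes, 2 of them near 3 genes, and 31 genes took part. This count depends on the limit, with 10 at 500 bp, 48 at 2 kb and 11 for regions that cover a TSS. The 24 made up 35.8% of the regions, while 8.32% of the 19620 regions at protein-coding genes lay near 2 or more such genes. The widest, 1706 bp at chr3:96268539-96270244, covered the TSSs and the whole coding sequences of Hist2h3b and Hist2h2bb, which both lie on the plus strand. The second was the 1065 bp region of Hist1h2ba/Hist1h2aa at chr13:23933682-23934746, a pair best known from testis, with TSSs 306 bp apart. Next came a region of 938 bp at chr3:96219629-96220566 near Hist2h2ab and Hist2h2ac. It was followed by 907 bp for Hist1h2ak/Hist1h2bn at chr13:21753348-21754254 and 855 bp for Hist1h2bf/Hist1h2ad at chr13:23573729-23574583. The regions near 3 genes were 336 bp wide for Hist1h2bl, Hist1h2ai and Hist1h3h, and 168 bp wide for Hist1h2bf, Hist1h2ad and Hist1h3d. The remaining shared regions outside the divergent pairs were 130 bp wide for Hist2h3c2 and Hist2h2aa2 and 290 bp wide for Hist1h2ab and Hist1h3b.

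The H2A and H2B regions lay mostly upstream of or over the TSS. The median position of the nearest centre was -120 bp for H2A and -57 bp for H2B, against 2.5 bp for all protein-coding genes with a region. The centre was downstream of the TSS in 3 of 15 H2A genes (20.0%) and 4 of 16 H2B genes, against 51.5% of protein-coding genes. A region shared by a divergent pair enters these counts once for each gene. Over all types the median position was -113 bp for the 22 genes with a region in divergent pairs and 132 bp for the 37 outside them. H2A regions had a median width of 405 bp, from 127 bp near Hist1h2ak to 1065 bp at Hist1h2aa. H2B regions had a median of 564 bp, from the same 127 bp region near Hist1h2bn to 1706 bp at Hist2h2bb.

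H3 and H4 form the tetramer at the centre of the nucleosome, and their regions differed in form. H3 genes all had a region, and 7 of 12 (58.3%) had a TSS covered, near the 61.4% of all protein-coding genes. The only region of Hist1h3h, centred at -806 bp from its TSS, was shared with Hist1h2bl and Hist1h2ai and covered 0% of its coding sequence. With a limit of 500 bp Hist1h3f, Hist1h3h, Hist2h3b and Hist2h3c1 had no region. H3 regions were the narrowest, with a median of 336 bp, from 130 bp at Hist2h3c2 and Hist1h3d to 1706 bp at Hist2h3b. Hist1h3d had 3 regions of 168, 130 and 369 bp, and Hist1h3b had 3 of 290, 266 and 278 bp. H4 genes had a TSS covered in 12 of 13 cases (92.3%). Their regions had a median of 667 bp, from 159 bp at Hist1h4n to 1477 bp at Hist1h4a, and the centre lay downstream of the TSS in 10 of 12 genes (83.3%, against 51.5% of protein-coding genes with a region), with a median of 189 bp. The promoters of an H3 gene with 2 regions and an H4 gene with 1 region of 815 bp are shown from 170 bp before to 30 bp after the TSS, with the same capitals, for Hist1h3c at chr13:23745573-23745772 (minus strand) and Hist1h4d at chr13:23581428-23581627 (plus strand).
Hist1h3c: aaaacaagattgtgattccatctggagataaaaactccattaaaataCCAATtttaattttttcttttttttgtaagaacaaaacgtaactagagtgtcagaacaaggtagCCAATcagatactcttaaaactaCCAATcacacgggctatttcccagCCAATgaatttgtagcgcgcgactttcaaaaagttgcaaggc
Hist1h4d: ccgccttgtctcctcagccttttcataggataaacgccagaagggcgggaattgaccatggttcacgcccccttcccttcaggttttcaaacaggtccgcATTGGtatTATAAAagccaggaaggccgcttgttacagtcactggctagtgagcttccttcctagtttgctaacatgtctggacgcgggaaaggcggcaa
Hist1h3c carried several CCAAT boxes and no TATAAA, whereas Hist1h4d carried 1 of each.

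Around the TSS of the representative transcript the histone genes were covered most often at the TSS itself, at 79.1%, against 50.7% of protein-coding genes. Coverage fell to 44.8% at 250 bp downstream and rose again to 64.2% at 450 bp, while over protein-coding genes it fell from 41.7% to 25.7% between these points. Upstream it was 14.9% at 500 bp and 31.3% at 750 bp, against 16.8% and 7.53%. Since the TSSs of the divergent pairs lie a median of 279 bp apart, upstream positions of paired genes often fall within the neighbouring gene.

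**Figure D3:**
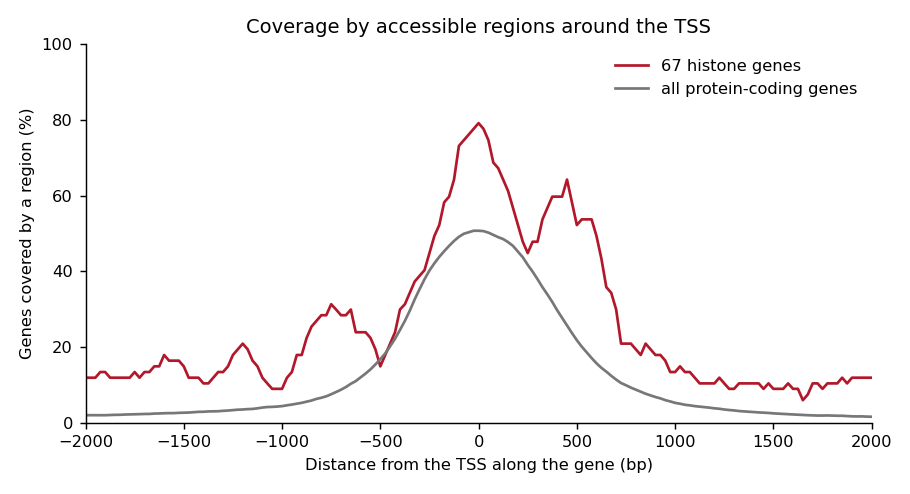
The lines give the percentage of genes covered by a region at each distance in bp from the TSS, for the 67 histone genes and all protein-coding genes. The histone line peaks at 79.1% at the TSS, dips to 44.8% at 250 bp and has a further peak of 64.2% at 450 bp, whereas the line of all protein-coding genes has a single peak.

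The dip lies over the coding sequence, where the copies of a histone type are closely alike. Between genes of the same type with equal coding length, the median identity of the coding sequence was 96.7% for H2A, 97.4% for H2B, 97.2% for H3 and 93.9% for H4. Only reads with a single alignment were kept when the regions were made, so the share of 75-base windows that occur only once in the genome was computed. Within 500 bp of the TSS it had a median of 76.4% over histone genes and 100% over protein-coding genes. By type the median was 99.9% for H1, 60.5% for H2A, 70.0% for H2B, 71.7% for H3 and 83.2% for H4. Within the coding sequence it was 91.2% for H1, 21.1% for H2A, 30.8% for H2B, 21.9% for H3 and 34.9% for H4. Paired reads can be placed by either mate, which a single window does not take into account.

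Positions in the coding sequence of all histone genes were covered by a region in 85.2% of cases where the window centred there was unique and in 37.4% where it was repeated. For H2A these shares were 79.4% and 16.6%, for H2B 91.0% and 43.9%, for H3 77.1% and 34.1% and for H4 94.0% and 69.0%. In the 500 bp upstream of the start codon they were 59.7% and 19.5% over all histone genes. H1 went the other way in its coding sequence, with 82.5% and 100%, but only 312 of its 3891 positions were repeated. At 200 bp after the start codon H3 genes had no unique window and 25.3% coverage, and at 400 bp 83.3% unique windows and 91.7% coverage. At 325 bp H3 genes had 13.7% unique windows and 83.3% coverage, and at 500 bp upstream of the start codon 83.3% unique windows and no coverage. H4 genes at 200 bp had 17.5% unique windows and 80.9% coverage. The part of unique sequence in the narrow and split regions was not tested.

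**Figure D4:**
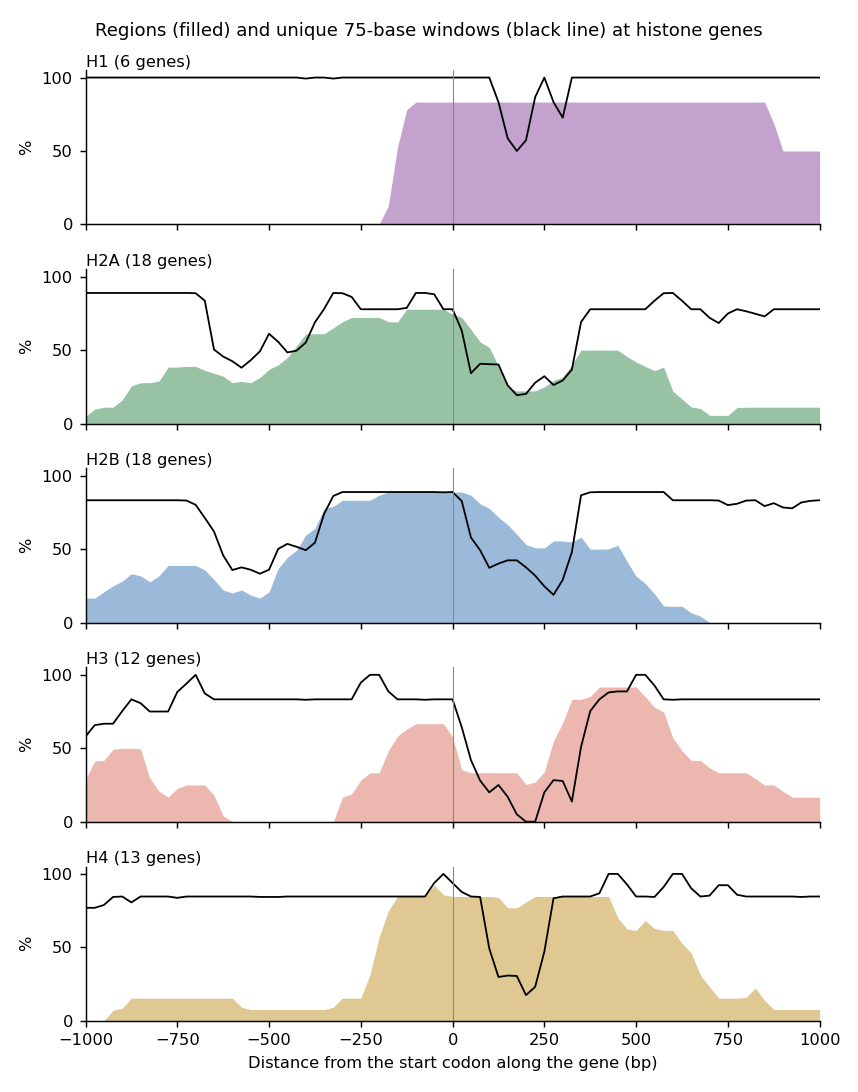
For each histone type, the filled area is the percentage of genes covered by a region and the black line the percentage of genes whose 75-base window centred there occurs only once in the genome, by distance in bp from the start codon. At 200 bp coverage is 22.2% for H2A, 25.3% for H3, 53.1% for H2B, 83.3% for H1 and 80.9% for H4. Unique windows there are 20.2%, 0%, 37.6%, 57.3% and 17.5% in the same order.

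Of the 8 genes without a region 5 had under 10% unique windows within 500 bp of the TSS. Hist1h2bq, Hist1h2ao, Hist1h2ap and Hist1h2br had 0%, the lowest of the group, and Hist1h4m had 8.63%. Hist1h4n, Hist2h3c1 and Hist2h3c2 had less than Hist1h4m, at 8.09% each, and had a region. The 5 genes belong to 2 facing copies of the same stretch of chromosome 13. Of the 75-base windows of the stretch from Hist1h2bq to Hist1h4m (chr13:21806612-21812147) 98.6% occurred also in that from Hist1h4n to Hist1h2br (chr13:21831767-21837530). Hist1h4n, the H4 gene of the other copy, had 8.09% unique windows and 2 narrow regions of 159 and 199 bp. The other 3 genes without a region had more unique sequence, with 75.2% for Hist1h2af, 99.9% for Hist1h1t and 100% for Hist1h1d.

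By classes of unique sequence, 3 of 8 histone genes with under 10% unique windows had a region, against 2.29% of 612 protein-coding genes in that class. From 10 to 50% it was 3 of 3, against 12.5%. From 50 to 90% it was 38 of 39 (97.4%), against 27.6% of 1189 protein-coding genes. At 90% or more it was 15 of 17 (88.2%), against 73.9%. Which gene families fill the lower classes among all protein-coding genes was not examined.

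**Figure D5:**
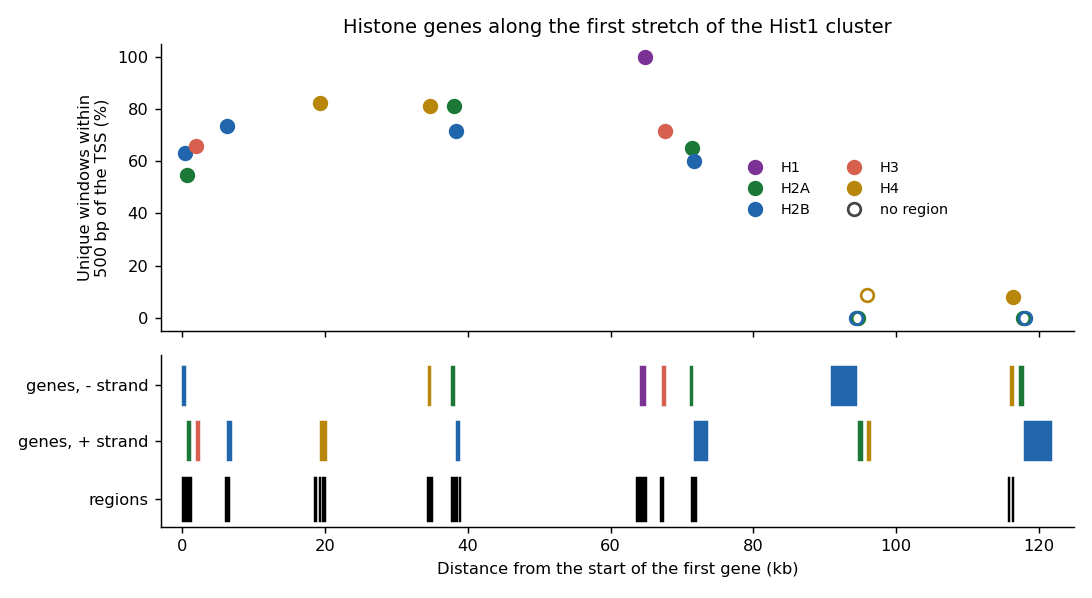
The upper panel gives, for the 18 histone genes of the first stretch of Hist1, the percentage of unique 75-base windows within 500 bp of the TSS against the distance in kb from the first gene, with open circles for genes without a region, and the lower panel the genes by strand and the regions. The 5 open circles lie at 0 to 8.63% at the far end, where circles of the same pair overlap.

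At the limit of 1 kb, the genes just inside were Hist2h3c1 with a nearest centre at 816 bp, Hist1h3h at -806 bp and Hist2h3b at 738 bp. Just outside were Hist1h2ap at 1397 bp, Hist1h2af at 1512 bp and Hist1h2br at -1633 bp. No histone gene had its nearest centre between 816 and 1397 bp.

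The genes of Hist1 fell into 4 stretches when split at gaps over 100 kb. The first, of 122 kb, held 18 genes, of which 13 had a region, and the second, of 8.51 kb, held 5 genes, all with a region. The third, of 233 kb, held 29 genes, of which 26 had a region. The last, of 1.08 kb, held Hist1h2ba and Hist1h2aa, and 90.3% of it was covered. In the third stretch 33 of 37 regions lay at a histone TSS, and in the other 3 stretches all did.

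The Hist2 cluster spans 50.3 kb and had 11 regions, 10 of them at a histone TSS. Hist2h2ab, Hist2h2ac and Hist2h2be shared regions of 938 and 809 bp as described. Hist2h4 had regions of 272 and 876 bp, the latter over its whole coding sequence, with 100% unique windows. The genes Hist2h3c2, Hist2h2aa2, Hist2h2aa1 and Hist2h3c1 form another pair of facing copies, with 75.8% of the windows of the former pair found in the latter. Hist2h3c2 had regions of 591 and 130 bp, Hist2h2aa2 regions of 130 and 139 bp, Hist2h2aa1 a region of 393 bp and Hist2h3c1 a region of 444 bp. Their coding sequences had no unique window, and between 0 and 21.3% of each was covered. Hist3h2ba had a region of 718 bp over 96.8% of its coding sequence and Hist3h2a a region of 871 bp over 100%. Hist4h4 had a region of 987 bp at chr6:136803698-136804684, centred 224 bp downstream of the TSS. These 3 genes had 91.9%, 94.8% and 100% unique windows.

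Among other histone genes, a list of replication-independent variants and germline histones was compared. H2afx, although in this list, carried the stem-loop used above to check the replication-dependent genes. Of the 22 genes listed 20 were found in the annotation, and 11 of these (55.0%) had a region. H1f0, a linker histone of resting cells, had a region of 215 bp, H1fx regions of up to 626 bp, H2afx, known for its phosphorylated form at DNA breaks, a region of 1167 bp, H2afz regions of up to 943 bp, H2afv a region of 812 bp and H2afj a region of 765 bp. The 9 genes without a region were H1foo of the oocyte, H1fnt, Hils1, H2al1a, H2al2a and H2al3 of the male germline, and H2afb1, H2afb2 and H2afb3. Unique windows within 500 bp of the TSS made up 0.108% at H2al1a, 64.1% at H2afb1, 77.2% at H2afb2, 72.4% at H2afb3 and at least 99.8% at the other 5. The replication-dependent genes known from testis did not fall together in this way, since Hist1h2ba and Hist1h2aa had a region and Hist1h1t had none.

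Of 23 listed factors of histone gene transcription and histone mRNA processing 22 were found in the annotation, and all 22 had a region over a TSS. The widest region was 915 bp at Npat, the coactivator of the histone locus body, 1021 bp at Casp8ap2, 1234 bp at Slbp, which binds the stem-loop, 496 bp at Lsm10 and 853 bp at Lsm11, both of the U7 snRNP that cuts histone pre-mRNA, and 764 bp at Zfp473, a U7 snRNP partner. Of 85 cytosolic ribosomal protein genes 83 (97.6%) had a region. Of 49 other protein-coding genes between the first and last gene of Hist1 6 had a region (12.2%), and 36 of the 49 were Vmn1r pheromone receptor genes, of which none had a region. Without them it was 6 of 13. In Hist3 the only other gene, Trim17, had a region, the 871 bp region that is also at Hist3h2a.

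Of 8 ES cell markers 6 had a region. Pou5f1 had regions of up to 501 bp and Sox2 of up to 767 bp, while for Nanog the nearest centre was 4329 bp from a TSS and for Dppa3 -1698 bp. All 11 markers of other cells, from Gata6 and Sox17 to Col1a2 and Thy1, also had a region. Presence of a region at a promoter therefore did not separate ES cell markers from those of other cells here, and for histone genes too it is a measure of accessibility and not of expression.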

How the data were processed

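ATAC-seq libraries of 12 samples were processed by the authors. Reads were aligned to mm10 with STAR (2.5.3a), keeping only those with a single alignment, duplicates were removed with Picard, and peaks were called in each library with MACS2 (2.1.1.20160309) on whole fragments and merged. Peaks found in a ChIP-seq input were dropped. No shift of read ends for the Tn5 insertion is stated. The deposited list gives chromosome, start and end of each region, so the depth behind each region and the spread between replicates are unknown, and no test was made. The ChIP-seq samples were not analysed here.

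Regions were matched to GENCODE M21 with Python (3.11.15), numpy (2.4.6), pandas (2.3.3) and scipy (1.17.1). Sequences were read from GRCm38, and no region ended past a chromosome. Windows of 75 bases were counted on both strands of 21 chromosomes with numba (0.67.0). The representative transcript was the shortest coding one, CCDS first. Counting was checked on simulated data. Members and lists were chosen with earlier results of these data known. Genes named were all without a region, the widest and narrowest by type, those sharing regions, those near the limit, and Hist2, Hist3 and Hist4, with Pou5f1, Sox2 and Nanog, and from the variant and factor lists all without a region and up to 6 with one. Dppa3, Gata6, Sox17, Col1a2 and Thy1 were named after their values were seen. Promoters printed were chosen after their values were seen.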

Additional observations from a re-analysis of the deposited data

How the results depend on the processing

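The share of histone genes with a region, the width of the regions, the number shared between genes, the promoter motifs and the unique sequence were recomputed under 13 other settings, which gave 42 values. Of these 35 stayed within the 95% interval of the reported value, or within 1.5 times of it for the shared count, and 7 did not. With a limit of 2 kb the share was 94.0%, against 70.4% of protein-coding genes, and without genes of under 10% unique windows, a choice made after seeing the data, it was 94.9%, against 69.9% of protein-coding genes with the same filter, and the cause was not tested. The median width was 707 bp for regions that cover a TSS and 991 bp when regions at most 500 bp apart were joined. The number of shared regions was 10 with a limit of 500 bp, 48 with 2 kb and 11 for regions that cover a TSS, and these follow from the construction of the limits. Counting from the start codon, also chosen after seeing the data, gave 89.6% and added Hist1h1d, against 46.6% of protein-coding genes by the start codon of the representative transcript. The list holds no score, so no stricter peak threshold could be tried. No paired analysis was possible because the merged list has no libraries. How the regions at histone genes differ between the 4 populations was therefore not tested, and the depth behind each region is unknown.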
